A study of Mus musculus with 14 samples.

Results

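The retinal pigment epithelium (RPE) is the pigmented cell layer between the photoreceptors and the choroid, and the 8 genes described here encode carbonic anhydrases and bicarbonate transporters. The members were given by symbol: the carbonic anhydrases Car2, Car12 and Car14 and the SLC4 transporters Slc4a2, Slc4a3, Slc4a4, Slc4a5 and Slc4a7. All 8 were found among the 42687 genes of the count table, and all 8 had enough reads to be tested in every comparison. RPE mRNA was sequenced from 14 C57BL/6J mice at 3 months of age, all male, with the RPE of both eyes of a mouse pooled in a library. KO mice were Best1-Cre+/-; Clic4f/f, that is, Clic4 was deleted by a Cre recombinase that the RPE-specific Best1 promoter drives. Clic4 encodes a protein named chloride intracellular channel, whose role as a channel is controversial per the study. Each KO group had its own controls. The WT set held 3 KO mice and 3 WT mice, which were wild type. The Ctrl set held 2 KO mice and 2 Ctrl mice, which carried Clic4f/f without Cre. The CreCtrl set held 2 KO mice and 2 CreCtrl mice, which carried Best1-Cre+/- without floxed alleles. Each control genotype occurs in a single set, so that genotype and set cannot be told apart among the controls.

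Carbonic anhydrases interconvert CO2 and water with bicarbonate and a proton. Car2 is cytosolic, whereas Car12 and Car14 are membrane-bound enzymes whose catalytic domain faces the outside of the cell. Slc4a2 and Slc4a3 are anion exchangers that trade chloride for bicarbonate, Slc4a4 and Slc4a5 are electrogenic sodium-bicarbonate cotransporters and Slc4a7 is an electroneutral cotransporter. In the RPE such proteins move the CO2 and acid that photoreceptor metabolism produces toward the choroid, and bicarbonate transport is tied to the movement of chloride and fluid across the layer.

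The libraries held 9828293 to 32384166 counted reads, and the WT libraries, at 9828293 to 12363580, were the shallowest. The targeted gene was lower in every KO library than in every control library of its set: Clic4 had 240.4 to 248.5 CPM in WT and 17.9 to 32.6 CPM in their KO, 59.4 and 69.2 CPM in Ctrl and 9.40 and 32.7 CPM in their KO, and 86.5 and 108.5 CPM in CreCtrl and 13.2 and 30.4 CPM in their KO. CPM are counts relative to the library total, scaled here with the TMM factors of the set. All 10 RPE markers were detected in every library. Their summed level was 16256 to 24682 CPM in WT and 70998 to 77813 CPM in the KO of that set, 44056 and 44300 CPM in Ctrl and 67592 and 70046 CPM in their KO, and 49381 and 56467 CPM in CreCtrl and 67685 and 75910 CPM in their KO. The RPE marker sum was thus higher in KO than in control in all 3 sets, with 8, 0 and 1 markers called higher in KO vs. WT, Ctrl and CreCtrl, and it was lowest in the WT mice. The summed level of 10 fibroblast markers ran the other way, from 8110 to 8446 CPM in WT and 1193 to 2717 CPM in Ctrl and CreCtrl to 119.3 to 730.4 CPM in the 7 KO libraries, with 10, 0 and 9 of them called lower. No marker of these lists was at 0 throughout a set. In bulk samples, fewer cells of a type and less RNA per cell cannot be told apart.

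Levels of the 8 genes, compared between genes as RPKM (CPM scaled over all 14 libraries, per kilobase of exon), differed widely. Car14 was the highest in every library, at 254.1 to 725.8 RPKM in the 7 controls and 785.8 to 998.5 RPKM in the 7 KO libraries. Slc4a5 came second, at 85.8 to 431.6 RPKM in controls and 291.5 to 487.7 RPKM in KO, and it too stood above the next gene in 14 of 14 libraries. Car12 had 49.4 to 171.9 RPKM in controls and 157.8 to 206.7 RPKM in KO, and Slc4a2 had 53.9 to 95.9 RPKM in controls and 101.1 to 139.3 RPKM in KO. Car12 lay above Slc4a2 in 7 of 7 KO libraries and 5 of 7 control libraries, so these neighbours in the order are not separated in the WT mice, where their means were 55.6 ± 7.37 and 56.2 ± 4.0 RPKM (SD, n = 3). Slc4a3 followed at 7.30 to 19.5 RPKM over both genotypes, Slc4a4 at 1.93 to 9.22 RPKM and Car2 at 0.317 to 5.46 RPKM. Slc4a7 was the lowest on average, with 0.450 to 1.03 RPKM, and was above Car2 in 1 KO and 1 control library. Thus a membrane-bound carbonic anhydrase and an electrogenic cotransporter held most of the summed RPKM of the carbonic anhydrases and of the SLC4 genes among the 8. Other genes of these families were not compared on this scale.

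**Figure D1:**
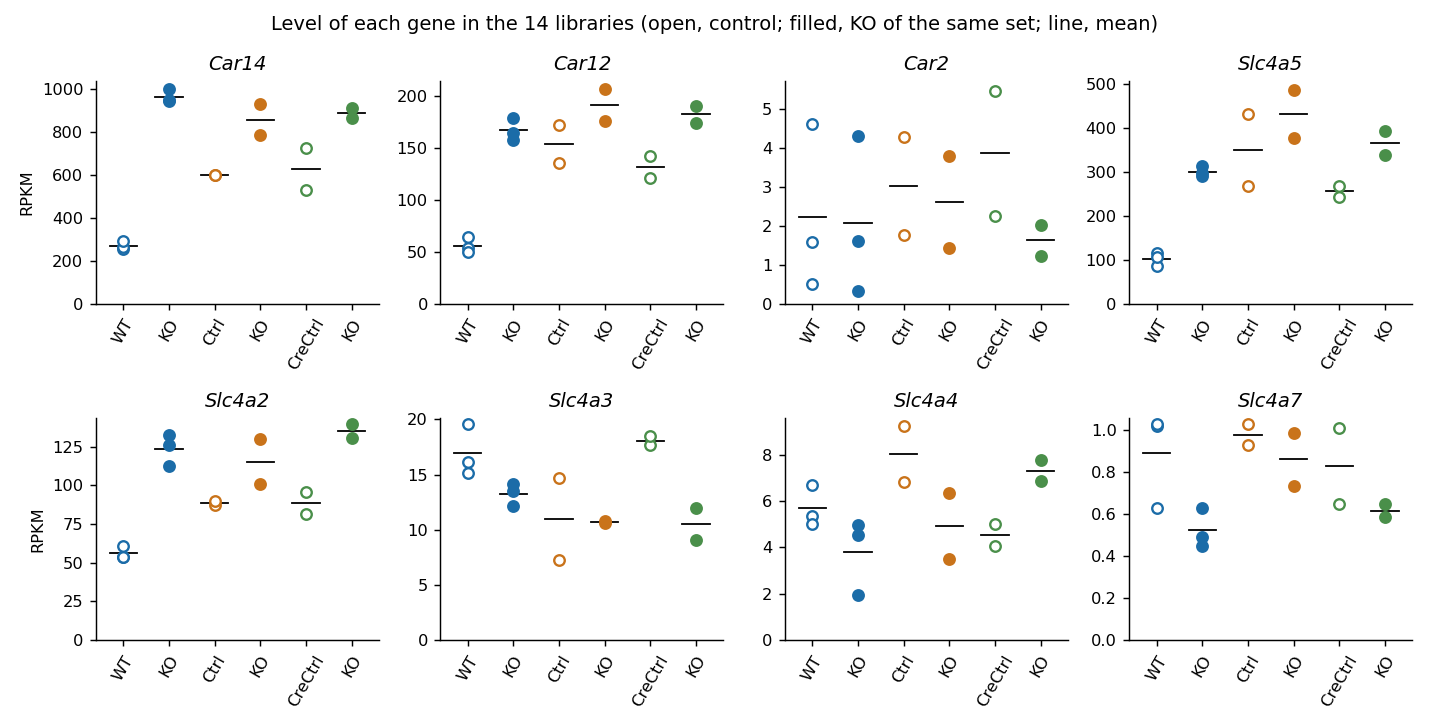
RPKM (linear y axes, each starting at 0) of the 8 genes in the 14 libraries; open points are control libraries, filled points the KO libraries of the same set, and lines the group means. Car14, Car12, Slc4a5 and Slc4a2 were lowest in the 3 WT libraries, and KO libraries of the 3 sets lay closer to each other than the controls did for these 4 genes.

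In KO vs. WT, of the 8 genes, 4 rose (Car14, Car12, Slc4a5 and Slc4a2) and 1 fell (Slc4a3) at an adjusted p under 0.05 (edgeR's quasi-likelihood test, Benjamini-Hochberg over 15428 genes), against a background of 16.1% of all tested genes called higher and 19.0% called lower in this comparison. Their median log2 fold change was 0.36, and that of all genes tested was -0.08. The KO libraries did not overlap the WT libraries for 7 of the 8 genes, and for 52.1% of all tested genes.

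Car14 (ENSMUSG00000038526, chromosome 3 of GRCm38, 95897768 to 95904691, minus strand), the membrane-bound enzyme with the highest level, had 700.5, 728.4 and 833.8 CPM in the 3 WT libraries and 2394, 2462 and 2404 CPM in the 3 KO libraries. The highest WT value was far under the lowest KO value. Its log2 fold change was 1.68 (SE 0.13, adjusted p = 4.84e-05 by edgeR's quasi-likelihood test), a 3.21-fold rise. Car12 (ENSMUSG00000032373, chromosome 9, 66713686 to 66766845, plus strand), the other membrane-bound enzyme, had 442.5, 410.3 and 542.4 CPM in WT and 1193, 1315 and 1253 CPM in KO. Again the groups did not overlap, and the log2 fold change was 1.43 (SE 0.14, adjusted p = 1.53e-04). All 6 fits that left out 1 library each kept the calls of Car14 and Car12.

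The promoter sequences of these membrane-bound carbonic anhydrases are given because both genes rose together, with the 250 bases before the RefSeq start (GRCm38.p6) read 5′ to 3′ on the strand of the gene. The windows are chr3:95904686-95904935 for Car14, of which the 6 bases nearest the start lie in its first GENCODE exon, and chr9:66713436-66713685 for Car12, which holds no annotated exon. Capitals mark a match to a motif.
Car14: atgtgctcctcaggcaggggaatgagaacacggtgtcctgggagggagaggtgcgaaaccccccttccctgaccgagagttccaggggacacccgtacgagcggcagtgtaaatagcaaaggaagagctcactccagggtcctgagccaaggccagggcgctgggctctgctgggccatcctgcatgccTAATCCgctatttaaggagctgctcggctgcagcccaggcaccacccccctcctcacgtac
Car12: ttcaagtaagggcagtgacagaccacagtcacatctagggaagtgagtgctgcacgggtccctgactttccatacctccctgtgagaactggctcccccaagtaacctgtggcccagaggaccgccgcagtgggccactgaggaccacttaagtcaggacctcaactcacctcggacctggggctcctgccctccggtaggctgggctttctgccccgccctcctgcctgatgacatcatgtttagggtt
The promoters of 7 of the 8 genes had an entry and were searched on both strands for 3 motifs, the E-boxes CATGTG (bound by MITF) and CACGTG and the OTX2 core TAATCC. No matches overlapped. Car14 held TAATCC once, on the strand of the gene with its first base 61 bases before the start (-61), and no window of the other 6 genes held any of the motifs. Of 32851 RefSeq promoters of the same length, 12.3% held CATGTG, 6.02% CACGTG and 6.25% TAATCC. A match to these letters is not a measured binding site.

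Slc4a5 (ENSMUSG00000068323, chromosome 6, 83219828 to 83304945, plus strand), an electrogenic sodium-bicarbonate cotransporter, had 727.9, 544.7 and 684.5 CPM in WT and 1684, 1670 and 1829 CPM in KO. The groups were well apart, and the log2 fold change was 1.41 (SE 0.15, adjusted p = 1.80e-04 by edgeR's quasi-likelihood test). Slc4a2 (ENSMUSG00000028962, chromosome 5, 24423837 to 24440950, plus strand), a chloride-bicarbonate exchanger, had 549.0, 491.1 and 502.4 CPM in WT and 929.8, 1018 and 1107 CPM in KO. Its log2 fold change was 0.99 (SE 0.12, adjusted p = 4.86e-04). Both calls were kept in all 6 fits without 1 library. Exons of Car14 share 445 bases with Aph1a and exons of Slc4a2 share 1242 bases with Fastk and Gm22333, in each case on the opposite strand. The strand setting of the counting is not given in the sources used here, so reads of these stretches are of uncertain origin.

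Slc4a3 (ENSMUSG00000006576, chromosome 1, 75546266 to 75562172, plus strand), the other anion exchanger, went the opposite way. It had 182.2, 142.2 and 155.1 CPM in WT and 121.2, 101.3 and 116.3 CPM in KO. The groups did not overlap, and the log2 value fell by 0.50 (SE 0.14, adjusted p = 0.0204 by edgeR's quasi-likelihood test). The call was lost without WT replicate 1 (adjusted p = 0.0529) and without KO replicate 1 (0.0593), 2 (0.166) or 3 (0.111), and the fit of all 14 libraries gave -0.36 (adjusted p = 0.208). The remaining 3 genes did not pass. Slc4a4, a cotransporter, had 60.9 to 78.4 CPM in WT and 21.004 to 53.6 CPM in KO (log2 fold change -0.73, SE 0.31, adjusted p = 0.107), with groups that did not overlap. The electroneutral cotransporter Slc4a7 had 10.4 to 17.5 CPM in WT and 6.63 to 9.57 CPM in KO, also without overlap (-0.92, SE 0.34, adjusted p = 0.0645), and passed without WT replicate 2 (adjusted p = 0.0454). Car2, the cytosolic enzyme, had 1.303 to 12.5 CPM in WT and 0.744 to 10.4 CPM in KO (-0.26, SE 1.005, adjusted p = 0.873).

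**Figure D2:**
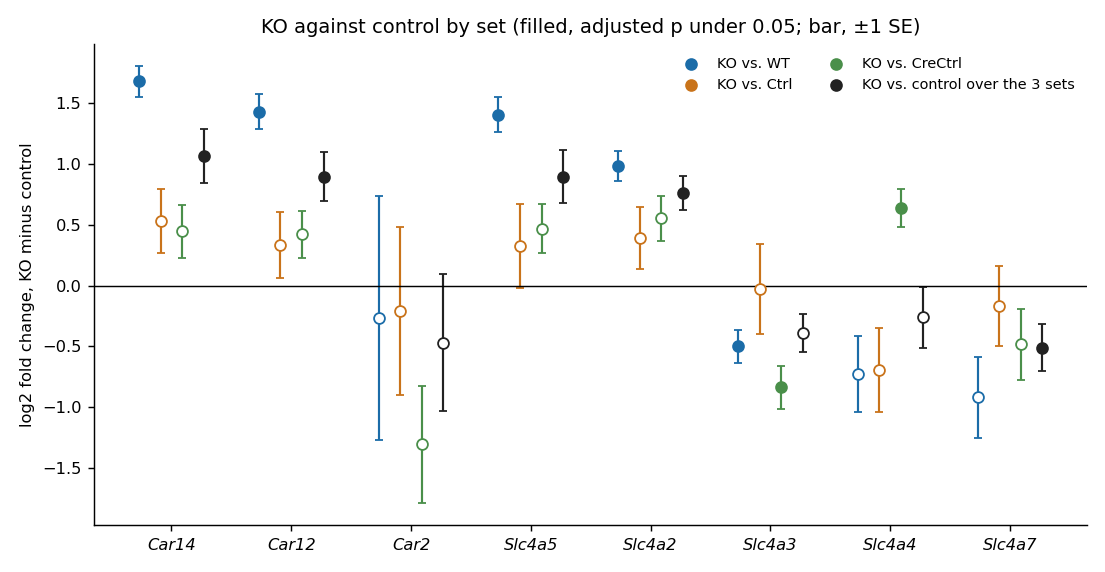
Log2 fold change of each gene, KO minus control, with bars of ±1 SE, in each set and over the 3 sets; filled points passed an adjusted p of 0.05. Car14, Car12, Slc4a5 and Slc4a2 lay above 0 in each set and passed in KO vs. WT and over the 3 sets, and Slc4a4 lay below 0 in the WT and Ctrl sets and above 0 in the CreCtrl set.

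In KO vs. Ctrl, 0 of the 8 genes were called by edgeR's quasi-likelihood test, against a background of 0.00% called higher and 0.00% called lower among 15287 genes, of which 1846 had an unadjusted p under 0.05. The targeted gene Clic4 was not called by edgeR's quasi-likelihood test either (log2 fold change -1.61, SE 0.58, adjusted p = 0.333). DESeq2 called 17 genes higher and 1094 lower. No member had an unadjusted p under 0.05 with edgeR, and DESeq2 gave 1 such gene and 0 calls. Car14 had 1469 and 1439 CPM in Ctrl and 2258 and 1937 CPM in KO (log2 fold change 0.53, SE 0.26, adjusted p = 0.570). Car12 had 991.5 and 1234 CPM in Ctrl and 1504 and 1299 CPM in KO (0.33, SE 0.27, adjusted p = 0.799). In both genes each KO value stood above each Ctrl value, as it did for Slc4a2, with 700.7 and 705.2 CPM in Ctrl and 1033 and 815.2 CPM in KO (0.39, SE 0.26, adjusted p = 0.715). Slc4a4 was the member whose KO values, 65.6 and 36.8 CPM, lay below its Ctrl values, 71.2 and 94.3 CPM (-0.69, SE 0.34, adjusted p = 0.562). The KO libraries did not overlap the Ctrl libraries for these 4 genes, against 41.0% of all tested genes. Slc4a5 overlapped, with 1503 and 2368 CPM in Ctrl and 2105 and 2743 CPM in KO (0.33, SE 0.35, adjusted p = 0.865). Car2, Slc4a3 and Slc4a7 overlapped as well, at -0.21, -0.03 and -0.17 on the log2 scale.

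In KO vs. CreCtrl, 1 member rose and 1 fell, against a background of 3.60% called higher and 12.2% called lower among 15963 genes. Slc4a4 (ENSMUSG00000060961, chromosome 5, 88886818 to 89239653, plus strand) had 53.2 and 44.8 CPM in CreCtrl and 80.2 and 72.2 CPM in KO, and it rose by 0.64 on the log2 scale (SE 0.16, adjusted p = 0.0397 by edgeR's quasi-likelihood test). Slc4a3 had 149.6 and 162.1 CPM in CreCtrl and 98.5 and 76.1 CPM in KO, and fell by 0.84 (SE 0.18, adjusted p = 0.0261). For each, both KO values were on 1 side of both control values. Neither call was kept in every fit without 1 library, each of which leaves 1 library in a group. Both were lost without CreCtrl replicate 2 and without KO replicate 2. Over the 4 such fits the log2 fold change was 0.49 to 0.77 for Slc4a4 and -1.01 to -0.65 for Slc4a3. CreCtrl replicate 2 had the highest summed level of 10 rod markers of all libraries, 4832 CPM, against 1014 CPM in CreCtrl replicate 1 and 244.1 and 366.1 CPM in their KO. In this comparison 10 of 10 rod, 9 of 10 fibroblast, 6 of 8 endothelial, 6 of 8 myeloid and 4 of 6 pericyte and smooth muscle markers were called lower, with list medians of -3.13, -3.51, -2.50, -2.51 and -2.97. The part of RNA from these cell types in the results was not tested.

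The 4 genes that rose in KO vs. WT had smaller differences here, and none passed by edgeR's quasi-likelihood test. By DESeq2, 3 of the 4 passed, Slc4a2 (adjusted p = 0.00270), Slc4a5 (0.0150) and Car12 (0.0277), and Car14 did not (0.0528). Calls over all 15963 genes rose too, to 1655 higher and 2441 lower by DESeq2 from 575 and 1954 by edgeR. Car14 had 1816 and 1375 CPM in CreCtrl and 2213 and 2136 CPM in KO (log2 fold change 0.45, SE 0.22, adjusted p = 0.177). Car12 had 1060 and 940.0 CPM in CreCtrl and 1265 and 1413 CPM in KO (0.42, SE 0.19, adjusted p = 0.154). The values of the transporters were of like size. Slc4a5 had 1536 and 1437 CPM in CreCtrl and 1884 and 2229 CPM in KO (0.47, SE 0.20, adjusted p = 0.136), and Slc4a2 had 785.5 and 691.7 CPM in CreCtrl and 1037 and 1129 CPM in KO (0.55, SE 0.19, adjusted p = 0.0803). Slc4a7 had 9.70 and 15.7 CPM in CreCtrl and 8.48 and 9.60 CPM in KO (-0.48, SE 0.29, adjusted p = 0.252). Car2 had 5.39 and 13.5 CPM in CreCtrl and 4.70 and 2.91 CPM in KO (-1.31, SE 0.48, adjusted p = 0.0956). For all 8 members the KO and CreCtrl libraries did not overlap, but neither did they for 71.7% of all tested genes. Over the 4 fits without 1 library, the log2 fold change was 0.23 to 0.66 for Car14, 0.43 to 0.64 for Slc4a2, -0.80 to -0.14 for Slc4a7 and -1.83 to -0.53 for Car2. The largest changes of these genes were those without CreCtrl replicate 1, a fit that leaves 1 control library.

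With the 3 sets fitted together, Car14, Car12, Slc4a5 and Slc4a2 rose in KO, and Slc4a7 fell, against a background of 18.5% called higher and 17.6% called lower among 17662 genes. The log2 fold changes were 1.07 for Car14 (SE 0.22, adjusted p = 0.00260 by edgeR's quasi-likelihood test), 0.90 for Car12 (SE 0.20, 0.00387), 0.90 for Slc4a5 (SE 0.22, 0.00563) and 0.76 for Slc4a2 (SE 0.14, 0.00134). Slc4a7 (ENSMUSG00000021733, chromosome 14, 14702279 to 14799940, plus strand) fell by 0.51 (SE 0.19, adjusted p = 0.0496), a call that was kept without WT replicate 2, CreCtrl replicate 1 or KO replicate 2 of the Ctrl set, and lost in the 11 other fits without 1 library, with adjusted p up to 0.132. The 4 rises passed in all 14 such fits but not without the WT set. Without that set the same 4 genes had 0.39 to 0.50, and 0 of 8 members passed. Calls over all genes also fell in that fit, to 96 higher and 921 lower among 16577 genes, from 3276 and 3112 among 17662. Slc4a4 (-0.26, adjusted p = 0.455) and Car2 (-0.47, 0.561) did not pass. Slc4a3 (-0.39, adjusted p = 0.0671) did not pass either, but its call depended on the setting. It was lower by DESeq2 (-0.47, adjusted p = 0.0218), with RLE normalization (0.0375), by library size alone (0.0108) and under both other filters on low counts (0.0460 and 0.0225), as well as without Ctrl replicate 2 (-0.54, 0.00191) or the whole Ctrl set (-0.57, 0.00457).

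The size of the KO effect was then compared between sets, in 1 fit of all 14 libraries, in which the median difference over all genes was 0.14 between the WT and Ctrl sets and 0.09 between the WT and CreCtrl sets. It was larger in the WT set than in the Ctrl set for Car14 by 1.29 (SE 0.24, adjusted p = 0.0142 by edgeR's quasi-likelihood test), for Car12 by 1.24 (SE 0.25, 0.0169) and for Slc4a5 by 1.22 (SE 0.31, 0.0403), all on the log2 scale. These are 3 of 8 members, against 5.15% of all tested genes. Slc4a2 gave 0.73 (SE 0.22, adjusted p = 0.0757). Without Ctrl replicate 2, or without KO replicate 2 of the Ctrl set, 0 members passed. Slc4a5 passed only without WT replicate 1 or Ctrl replicate 1 among the 10 fits without 1 library, with adjusted p up to 0.260. Against the CreCtrl set the effect was larger in the WT set for Car14 by 1.34 (SE 0.24, adjusted p = 0.0246) and for Car12 by 1.12 (SE 0.25, 0.0425), which are 2 of 8 members against 1.49% of all tested genes. Slc4a5 gave 1.05 (SE 0.31, adjusted p = 0.112) and Slc4a2 0.54 (SE 0.22, 0.269). Over the 10 fits without 1 library the difference between these sets was 1.12 to 1.54 for Car14 and 1.02 to 1.23 for Car12. Neither call was kept in all of them. Without 1 library of the WT set, Car12 passed only without WT replicate 3. Car14 lost its call without WT replicate 2 and without KO replicate 2 or 3 of the WT set. Over all genes the fits without 1 library of the WT set called 8 to 226 with a larger and 4 to 95 with a smaller effect, against 198 and 66 in the full fit. Between the Ctrl and CreCtrl sets 0 of 8 members differed, with 0.00% of all tested genes called, 1 member at an unadjusted p under 0.05 and 0 calls by DESeq2. The opposite signs of Slc4a4 did not pass either, with a difference of -1.26 between the WT and CreCtrl sets (SE 0.48, adjusted p = 0.229) and -1.37 between the Ctrl and CreCtrl sets (SE 0.53, adjusted p = 0.537).

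The controls of the 3 sets differed in level. On the RPKM scale over all 14 libraries, Car14 had 269.6 ± 20.4 in WT (SD, n = 3) and 529.5 to 725.8 in the 4 Ctrl and CreCtrl libraries, while its 7 KO libraries had 910.2 ± 68.4 (SD, n = 7). Car12 had 55.6 ± 7.37 RPKM in WT (SD, n = 3), 121.2 to 171.9 RPKM in Ctrl and CreCtrl and 178.4 ± 16.3 RPKM in KO (SD, n = 7). Slc4a5 had 102.3 ± 15.2 RPKM in WT (SD, n = 3), 242.5 to 431.6 RPKM in Ctrl and CreCtrl and 357.5 ± 69.5 RPKM in KO (SD, n = 7). For these genes no WT value reached a Ctrl or CreCtrl value. The share of all tested genes with such a gap was not counted, so the gap is not shown to be particular to these genes. The RPE markers were lowest in the same WT libraries, as given above.

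The members were therefore set beside the RPE markers. In KO vs. WT the 10 RPE markers had a median log2 fold change of 1.57, with 8 called higher. Car14 at 1.68, Car12 at 1.43 and Slc4a5 at 1.41 were near that value, Slc4a2 at 0.99 was below it, and the other 4 genes were at or under -0.26. Not all markers moved together. Mitf had 0.19 (adjusted p = 0.255 by edgeR's quasi-likelihood test), and Best1 went the other way, at -1.82 (0.0616) against WT and -1.11 (0.105) against CreCtrl. The marker medians were 0.54 against Ctrl and 0.45 against CreCtrl, beside 0.33 to 0.53 and 0.42 to 0.55 for the same 4 members. With libraries scaled to the geometric mean of the 10 RPE markers, which moved the median of all genes in KO vs. WT to -1.38, Car14 still rose by 0.39 (SE 0.11, adjusted p = 0.0117 by edgeR's quasi-likelihood test). Under TMM, Car14 lay below Lrat (2.71), Rgr (2.20), Ttr (1.91) and Rpe65 (1.78) in KO vs. WT. It lay above Rrh (1.65), Rdh5 (1.49), Rlbp1 (1.37), Otx2 (1.31), Mitf and Best1. The geometric mean includes Best1, and how far values scaled to the 10 markers depend on Best1 was not tested. On this scale Car12 had 0.14 (adjusted p = 0.342), Slc4a5 0.10 (0.614) and Slc4a2 -0.32 (0.0806), while Slc4a3 (-1.81, 9.80e-05), Slc4a4 (-2.03, 0.00129) and Slc4a7 (-2.22, 6.31e-04) fell. In KO vs. CreCtrl the call of Slc4a3 was kept (-1.22, adjusted p = 0.0165) and that of Slc4a4 was not (0.27, adjusted p = 0.249). The direction for Slc4a2 thus depended on the scale in KO vs. WT and over the 3 sets, and it also turned for Car12, Slc4a5 and Slc4a2 between KO and Ctrl, a comparison in which none passed. Whether the RPE share of the RNA accounts for these differences was not tested.

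**Figure D3:**
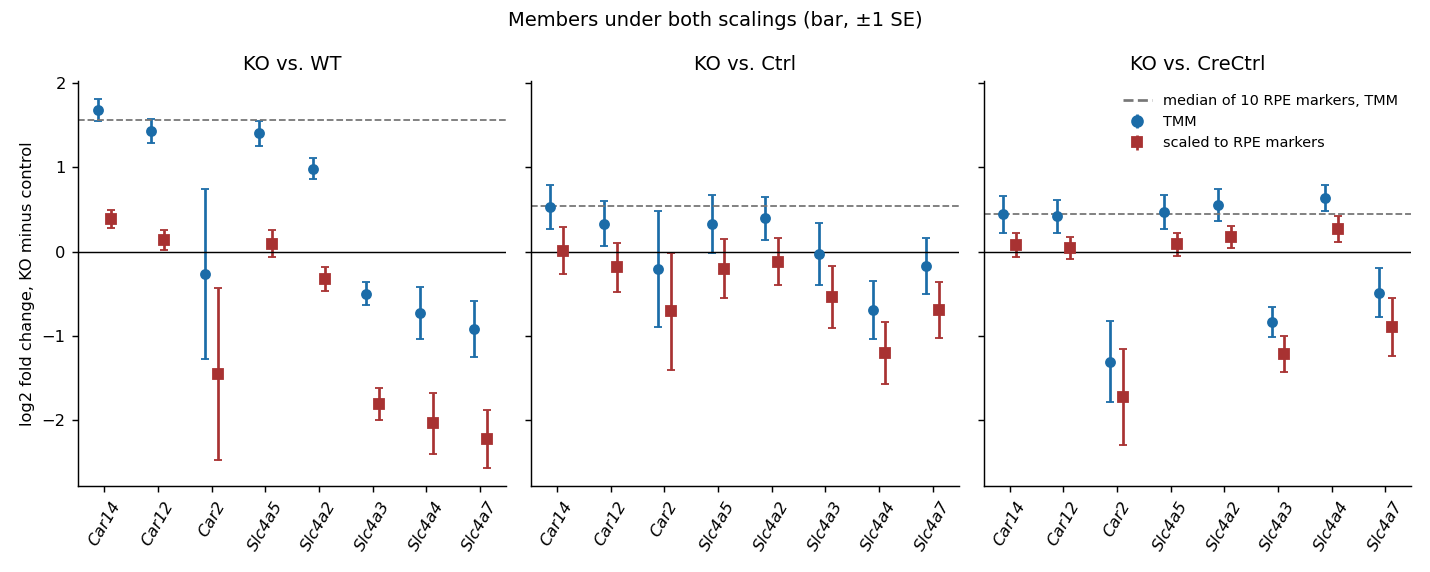
Log2 fold change of the 8 genes, KO minus control, in the 3 sets under TMM (circles) and scaled to 10 RPE markers (squares), with bars of ±1 SE; the dashed line is the median of the RPE markers under TMM (1.57, 0.54 and 0.45). Under TMM, Car14, Car12 and Slc4a5 lay near the dashed line in each set, and under RPE marker scaling they lay near 0, with Car14 in KO vs. WT at 0.39.

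Ratios within a library do not depend on the scaling. Car14 stood at 3.48 to 6.00 times Car12 in RPKM over the 14 libraries. The ratio was 4.88 ± 0.38 in WT (SD, n = 3) and 5.77 ± 0.21 in their KO (SD, n = 3), where every KO value, from 5.59, exceeded every WT value, up to 5.30. It overlapped or nearly so elsewhere, with 3.48 and 4.43 in Ctrl and 4.45 and 4.48 in their KO, and 4.37 and 5.12 in CreCtrl and 4.52 and 5.23 in their KO. Among the 5 SLC4 genes, Slc4a5 made up 53.3 to 58.1% of the summed RPKM in WT and 67.4 to 68.8% in their KO. In the other sets its share was 71.0 and 80.1% in Ctrl, 72.0 and 80.8% in their KO, 69.3 and 69.8% in CreCtrl and 69.3 and 71.7% in their KO. The share of Slc4a3 moved the other way, from 8.88 to 9.59% in WT to 2.76 to 3.35% in their KO, and from 4.56 and 5.32% in CreCtrl to 2.44 and 1.65% in their KO. In the Ctrl set its share was 3.89 and 1.35% in Ctrl and 2.06 and 1.75% in KO, which overlap. Shares of 1 sum trade off. From WT to their KO, mean RPKM went from 16.9 to 13.3 for Slc4a3, from 102.3 to 300.8 for Slc4a5 and from 56.2 to 123.7 for Slc4a2. The cotransporter that dominated in each library was therefore Slc4a5 and not Slc4a4, whose share was 0.418 to 3.33%. No test was run on these ratios, since an exact permutation test cannot go below p = 0.1 with 3 libraries against 3 or 0.333 with 2 against 2.

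**Figure D4:**
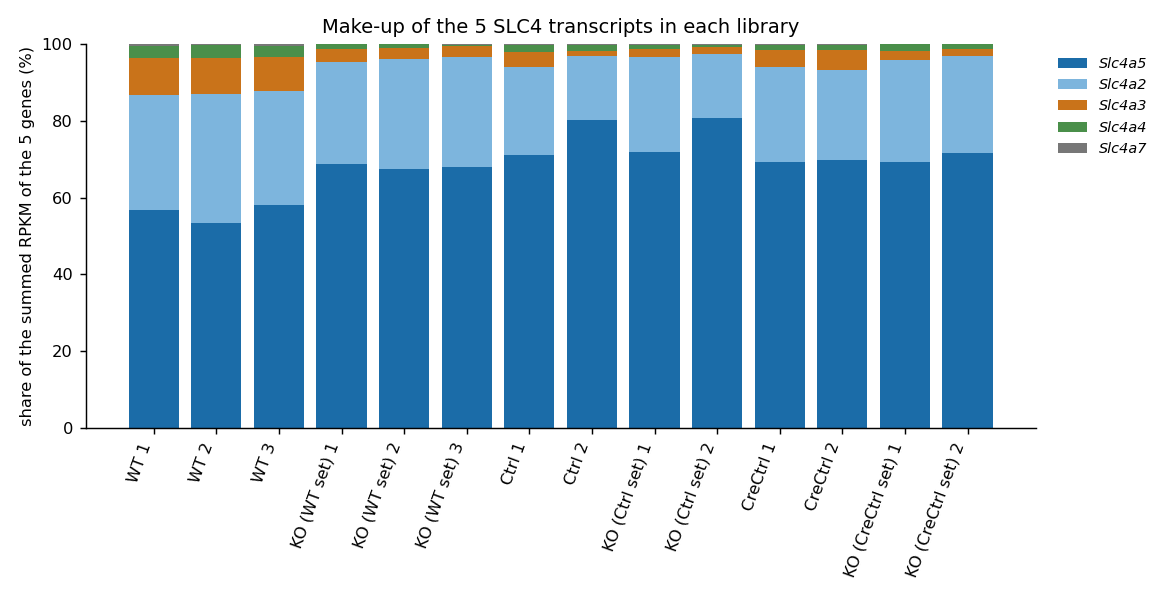
Share (%) of the 5 SLC4 genes in their summed RPKM, a stacked bar for each of the 14 libraries. Slc4a5 made up 53.3 to 58.1% in the 3 WT libraries and 67.4 to 80.8% in the other 11, and Slc4a3 was largest, 8.88 to 9.59%, in WT.

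In the WT and Ctrl sets, libraries of the same group differed in Car2 (ENSMUSG00000027562, chromosome 3, 14886273 to 14900770, plus strand) by more than KO and control did. In the CreCtrl set both KO values lay below both control values, as given above, without a call. Car2 had 11 to 211 reads in a library. As chosen after the values were seen, its level was set against the summed level of 10 rod markers over the 14 libraries, with Pearson's r = 0.63 (permutation p = 0.0165) and Spearman's rho = 0.69 (permutation p = 0.00763). After adjustment over the 10 marker lists compared with Car2 neither permutation p passed (Benjamini-Hochberg p = 0.165 and 0.0763). The 5 cone markers gave nearly the same values, r = 0.56 (permutation p = 0.0368) and rho = 0.64 (permutation p = 0.0156), which did not pass either (0.184 and 0.0782), and the other 8 lists gave r between -0.14 and 0.12. Without the 2 libraries farthest from the median rod level r was 0.67, after subtracting the set means it was 0.58, and within the 6 libraries of the WT set it was 0.49. The other sets hold 4 libraries each, too few for a correlation. The part of photoreceptor RNA in the Car2 level was not tested.

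Across the 14 libraries, with the mean of the set removed from log2 CPM, the 4 rising genes varied together: Car12 and Car14 had r = 0.98, Car14 and Slc4a2 0.96, Car12 and Slc4a5 0.96, and the other 3 pairs 0.92 to 0.96. These correlations include the KO difference and other differences between libraries, such as those of the RPE marker sums given above. What part each has in them was not tested, and they are given as a description. Genes of the whole table came still closer. The genes most like Car12 were Pip5k1b (r = 0.996), Rgr (0.994), which is an RPE opsin, and Fam213a (0.993). Those most like Car14 were Alad (0.994), an enzyme of heme synthesis, Ldhb (0.992), a lactate dehydrogenase subunit, and Tspan10 (0.992). For Slc4a5 they were the lysosomal protease Tpp1 (0.991), Mapk6 (0.987) and Bmp2 (0.987), and for Slc4a2 Rhbdd2 (0.992), Creb3 (0.992) and Aldh5a1 (0.984). The genes most like the other members had lower values: Ccnl2 (0.983), 4933439C10Rik (0.979) and Slc38a9 (0.958) for Slc4a3, Rprd2 (0.934), Pdha1 (0.925) and Astn2 (0.913) for Slc4a4, and Clip3 (0.917), Bicra (0.915) and Epc1 (0.915) for Slc4a7.

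Other genes of acid-base transport were examined as 4 lists. Of all tested genes, 16.1% were called higher and 19.0% lower in KO vs. WT, and 3.60% and 12.2% in KO vs. CreCtrl. Of 13 other carbonic anhydrases 7 were tested in KO vs. WT, of which Car10 rose and Car8 fell, both of them carbonic anhydrase-related genes whose proteins lack the enzyme activity. Car10 had 20.9 ± 9.34 CPM in WT and 113.6 ± 9.62 CPM in KO (SD, n = 3; log2 fold change 2.43, SE 0.28, adjusted p = 3.07e-04 by edgeR's quasi-likelihood test). Its values were 0.77 (adjusted p = 0.559) against Ctrl and 0.33 (0.251) against CreCtrl. Car8 fell by 2.18 in KO vs. WT (SE 0.56, adjusted p = 0.0167), with -1.91 (0.449) and -1.72 (0.0587) in the other sets. In the list of 5 other SLC4 genes, 3 were tested and Slc4a8, a sodium-driven chloride-bicarbonate exchanger, fell by 2.33 in KO vs. WT (SE 0.49, adjusted p = 0.00647), with -1.64 (0.242) against Ctrl and -2.01 (0.0535) against CreCtrl. Every KO value of Car8 and Slc4a8 lay below every control value in each set. Groups did not overlap for 52.1%, 41.0% and 71.7% of all tested genes in KO vs. WT, Ctrl and CreCtrl. Both genes were low, with group means of 3.00 to 12.2 CPM in controls and 0.799 to 2.42 CPM in KO. Car11 was called lower in KO vs. CreCtrl, and no gene of these lists was called in KO vs. Ctrl. The list medians in KO vs. WT were 0.26 for carbonic anhydrases and -0.91 for SLC4 genes, beside -0.08 for all genes.

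Of 11 SLC26 anion exchangers 8 were tested in KO vs. WT, where Slc26a7, a chloride-bicarbonate exchanger and chloride channel, rose and Slc26a2, a sulfate transporter, fell. Slc26a7 had 142.3 ± 22.4 CPM in WT and 264.2 ± 29.2 CPM in KO (SD, n = 3), a log2 fold change of 0.89 (SE 0.15, adjusted p = 0.00214 by edgeR's quasi-likelihood test). It also rose in KO vs. CreCtrl (1.23, SE 0.31, adjusted p = 0.0400), and had 0.21 (0.919) in KO vs. Ctrl. Slc26a2 fell by 2.16 in KO vs. WT (SE 0.25, adjusted p = 3.43e-04) and by 1.09 in KO vs. CreCtrl (SE 0.24, adjusted p = 0.0299), with -0.63 (0.508) in KO vs. Ctrl. The list median was -0.09 in KO vs. WT, where 1 of 8 genes was called in each direction, against 16.1% and 19.0% of all tested genes.

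Of 9 genes that regulate bicarbonate transport 8 were tested, and in KO vs. WT 5 rose and 2 fell, against the 16.1% and 19.0% of all tested genes called higher and lower, with a median log2 fold change of 0.65 beside -0.08 for all genes. Slc9a3r1, a scaffold that anchors transporters at the apical membrane, had 421.4 ± 125.3 CPM in WT and 1197 ± 113.4 CPM in KO (SD, n = 3; 1.51, SE 0.22, adjusted p = 0.00108 by edgeR's quasi-likelihood test). Ahcyl2, which binds and modulates sodium-bicarbonate cotransporters, rose by 1.49 (SE 0.19, adjusted p = 5.02e-04), and the kinase gene Stk39 by 0.78 (SE 0.20, 0.0171). Ahcyl1 and Wnk4 also rose. The related scaffold gene Slc9a3r2 fell by 1.66 (SE 0.25, adjusted p = 0.00126) and the kinase gene Wnk1 by 0.89 (SE 0.13, 0.00101). In KO vs. CreCtrl, Stk39 rose (0.84, SE 0.19, adjusted p = 0.0326) and Slc9a3r2 fell (-0.73, SE 0.18, adjusted p = 0.0410), and Ahcyl2 had 0.73 (0.0505) and Slc9a3r1 0.30 (0.313). In KO vs. Ctrl none passed, with 0.80 for Slc9a3r1 (adjusted p = 0.270) and -0.69 for Slc9a3r2 (0.466). The kinase Wnk1 had -0.50 (0.703) in that set and -0.07 (0.786) in KO vs. CreCtrl.

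**Figure D5:**
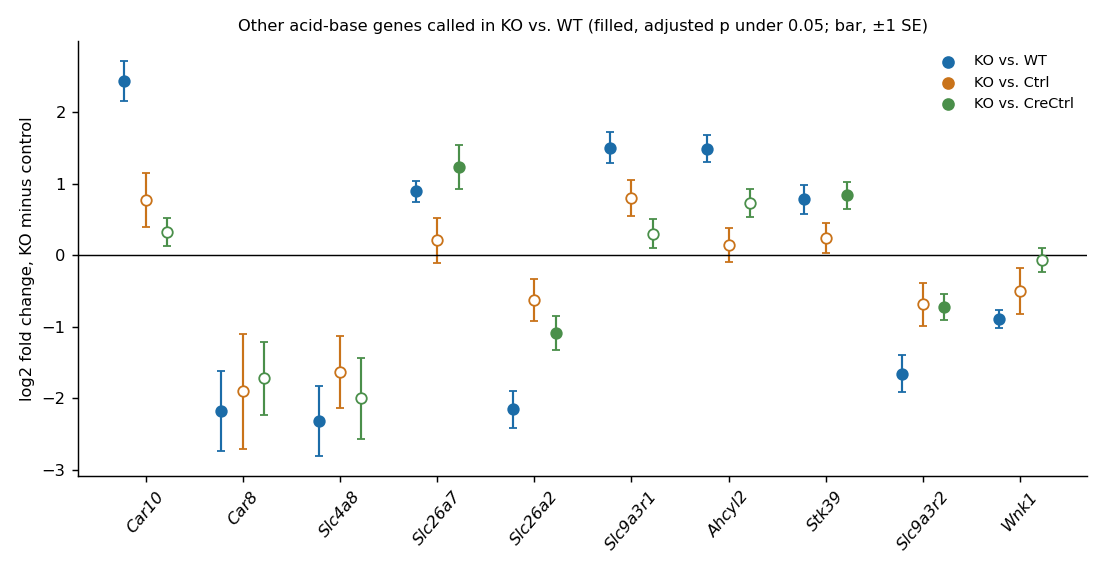
Log2 fold change, KO minus control, with bars of ±1 SE, of the genes of these 4 lists that were called in KO vs. WT, at most 3 in each direction per list; filled points passed an adjusted p of 0.05. Slc26a7, Slc26a2, Stk39 and Slc9a3r2 passed in KO vs. WT and KO vs. CreCtrl, and none passed in KO vs. Ctrl.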

How the data were processed

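Per the labels and the study's methods, total RNA of RPE isolated enzymatically was made into TruSeq Stranded mRNA libraries, sequenced with paired ends, demultiplexed with bcl2fastq 2.19 and aligned to GRCm38 with STAR 2.5.2. The authors deposited raw counts of reads per Ensembl gene. HTSeq 0.11.2 and Cufflinks 2.1.1 are also named in the submitters' processing notes. The strand setting and annotation release are not given in the sources used here. Poly(A) selection leaves out RNA without a tail, and counts follow transcript length, which RPKM divides out by the union of GENCODE M21 exons.

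KO libraries were compared with the controls of their set by edgeR 4.0.16 (glmQLFit, glmQLFTest) in R 4.3.3 with TMM, filterByExpr and Benjamini-Hochberg adjustment over all genes tested, as were the fit over the 3 sets (set as covariate) and the contrasts between sets (6 groups). A gene was called at an adjusted p under 0.05. DESeq2 1.42.0, the tool of the study, was an alternative. CPM in the text use the TMM factors of the set and RPKM those over all 14 libraries. The main fits of each set and over the 3 sets, and the contrast of the WT and Ctrl sets, were first run on simulated counts. These had the same spread for every gene and no difference in cell make-up between libraries, so they do not show how the fits behave on these data. KO libraries were put in sets by the way their titles are written. Members, gene lists, marker lists and tests were chosen with earlier results of these data known. Named pathway genes were those called in KO vs. WT, at most 3 per list and direction, except where a count of calls is named in full; most-like genes are the 3 with the highest Pearson's r of log2 CPM (prior count 2) minus the set mean.

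Each library is a separate mouse, and 0 columns of the table were without a sample. With 2 or 3 mice per group, the spread is estimated mainly across genes. No pair of replicates agreed within sampling noise. Markers were 10 lists of RPE, fibroblast, rod, cone, Mueller glia, endothelial, myeloid, erythrocyte, melanocyte and Schwann cell, and pericyte and smooth muscle genes. In KO vs. WT the medians of the other lists were 0.51 for rod, -0.73 for cone, -0.91 for Mueller glia, -2.31 for endothelial, -3.56 for myeloid, -1.71 for erythrocyte, 0.17 for melanocyte and Schwann cell, -3.39 for pericyte and smooth muscle and -4.32 for fibroblast. In KO vs. CreCtrl the medians not given in the report were -2.68 for cone, 0.63 for Mueller glia, -3.24 for erythrocyte and -0.03 for melanocyte and Schwann cell, and in KO vs. Ctrl the medians were 0.68 for rod, 0.64 for cone, -1.56 for Mueller glia, -1.95 for endothelial, 0.30 for myeloid, -0.66 for erythrocyte, -0.30 for melanocyte and Schwann cell, -3.27 for pericyte and smooth muscle and -2.98 for fibroblast, with 0 markers called by edgeR. No member is on a marker list. A further list of acid-base genes is not reported here.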

Additional observations from a re-analysis of the deposited data

Results flagged for a closer look

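The KO effect on log2 expression differed between sets for 3 members by a test of the difference itself. Car14 differed by 1.29 between the WT and Ctrl sets and by 1.34 between the WT and CreCtrl sets, Car12 by 1.24 and 1.12, and Slc4a5 by 1.22 between the WT and Ctrl sets (edgeR's quasi-likelihood test, adjusted p = 0.0142, 0.0246, 0.0169, 0.0425 and 0.0403 in that order). In each case the effect was larger in the WT set, in which every control value was below every control value of the other sets. How many other genes have such a gap was not counted. The KO values of the WT set were above those of the other sets for Car14 (941.8 to 998.5 against 785.8 to 926.6 RPKM), below them for Slc4a5 (291.5 to 314.0 against 339.6 to 487.7 RPKM) and overlapped them for Car12 (157.8 to 178.5 against 174.2 to 206.7 RPKM). In that fit of all 14 libraries the median difference over all genes was 0.14 between the WT and Ctrl sets and 0.09 between the WT and CreCtrl sets. Scaled to the RPE markers, the differences were 0.37 (adjusted p = 0.210) and 0.31 (0.296) for Car14, 0.32 (0.320) and 0.09 (0.797) for Car12 and 0.30 (0.527) for Slc4a5. Among the 7 KO libraries, no value of the 8 members stood apart from the rest by Dixon's criterion.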

How the results depend on the processing

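Of the calls, those of Car14, Car12, Slc4a5 and Slc4a2 in KO vs. WT and over the 3 sets were kept in every fit without 1 library. The count of members called was 5 in KO vs. WT and 4 to 7 under the alternatives, and it was 0 in KO vs. Ctrl under each of them. In KO vs. CreCtrl, where 2 were called, library size alone gave 1 (Slc4a3), DESeq2 5 (Slc4a3, Slc4a4, Slc4a2, Slc4a5 and Car12), RPE marker scaling (chosen after seeing the data) 1 (Slc4a3) and the fit of all 14 libraries 0. The count also moved in fits without 1 library, each of which leaves 1 library in a group. Over the 3 sets, where 5 were called, RPE marker scaling gave 3, all lower (Slc4a3, Slc4a4 and Slc4a7), so that the 4 rises were lost, and leaving out the WT set gave 0. The 3 members that differed between the WT and Ctrl sets became 2 under RPE marker scaling, neither of which is among the 3. The 2 between the WT and CreCtrl sets became 1 under RPE marker scaling, a different gene (Slc4a4, -2.30). Neither these counts nor the 0 between the Ctrl and CreCtrl sets were kept in every fit without 1 library, in which calls over all genes changed too. Directions turned under RPE marker scaling, which moves the median of all genes to -1.38, -0.50 and -0.40 in the WT, Ctrl and CreCtrl sets by construction. On that scale Slc4a2 had -0.32 against WT, -0.12 against Ctrl and -0.12 over the 3 sets, and its differences were -0.21 and -0.50 between the WT set and the Ctrl and CreCtrl sets. Car12 had -0.18 and Slc4a5 -0.20 in KO vs. Ctrl. Without 1 library, Car2 ran from -1.33 to 0.87 in KO vs. WT and from -1.07 to 0.59 in KO vs. Ctrl, Slc4a3 from -0.46 to 0.59 and Slc4a7 from -0.41 to 0.031 in KO vs. Ctrl. In these cases other than the scaling the cause was not tested.

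Same-numbered libraries correlated at -0.016 to 0.131 in their deviations from the group means, so the replicate numbers were not taken as pairs. With the replicate number as a block, 6 members were called against WT, 0 against Ctrl, 3 against CreCtrl and 4 over the 3 sets. The block added Slc4a4 in KO vs. WT (-0.82, edgeR adjusted p = 0.0412) and Car2 in KO vs. CreCtrl (-1.21, 0.0129), removed Slc4a7 over the 3 sets (-0.49, 0.0687) and gave Slc4a3 0.061 in KO vs. Ctrl. It changed no other call of a member.

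Over all genes, called higher and lower were 2490 and 2929 in KO vs. WT against 1716 and 3942 by library size alone. Under that scaling the median over all genes was -0.32, -0.11 and -0.24 in the WT, Ctrl and CreCtrl sets. In KO vs. CreCtrl 575 and 1954 became 219 and 2757 by library size, 1655 and 2441 by DESeq2, 1862 and 2931 with every gene of at least 1 count, 1108 and 2716 with the replicate block and 198 and 506 in the fit of all 14 libraries. In KO vs. Ctrl 0 and 0 became 26 and 1632 with every gene, 0 and 113 with the block and 13 and 635 in the fit of all 14 libraries. Over the 3 sets 3276 and 3112 became 1499 and 4769 by library size and 96 and 921 without the WT set. With RPE marker scaling the counts were 210 and 10269 against WT, 0 and 390 against Ctrl, 81 and 3022 against CreCtrl and 106 and 10546 over the 3 sets. Between the WT and Ctrl sets 766 genes with a larger and 143 with a smaller value in the WT set became 1037 and 593 by DESeq2, and between the WT and CreCtrl sets 198 and 66 became 565 and 336. Depth limits Car2, with 11 to 211 reads a library, most.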

Other observations

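Of the genes outside the 8 members, 2 were high in a single library, Ctrl replicate 2, and were noticed after their values were seen. Car3, a carbonic anhydrase of muscle and fat, had 136.9 CPM in that library (3846 reads) and 0 to 5.68 CPM in the other 13. Slc4a11, a transporter known from corneal endothelium, had 50.0 CPM there (1405 reads) and 0.334 to 6.35 CPM elsewhere. That library also held the highest Slc4a5 value of any control, 2368 CPM, and the lowest Slc4a3 value of any library, 59.3 CPM.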
